A study of Mus musculus with 36 samples.

Results

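The right lungs of 9 month mice 3 days after pneumonectomy (PNX), an operation that takes out the left lung, were compared with the left lungs that had been taken out of the same mice at the operation. The comparison used 6 of the 36 arrays of the series, which were those whose labels gave an age of 9 months and day 3, with 3 right lungs (post-PNX) and 3 left lungs (control). All mice were female C57BL6, and each array held RNA pooled in equal amounts from 2 mice, so that the 3 pools stood for 6 mice. The right and left lung of a pool came from the same mice, and they were numbered pool 1, 2 and 3 after the biological replicate in the labels. The other 30 arrays were of 3 month mice on days 1, 3 and 7 and of 9 month mice on days 1 and 7, with 3 pools each, and all mice of the series underwent PNX. They shared the normalization, the filter on detection and the estimate of the spread, and the 3 month mice of day 3 and the 9 month mice of days 1 and 7 were also compared with the 9 month mice of day 3. The right lungs of day 3 lay on a different array chip from the left lungs, and no right lung of an unoperated or sham-operated mouse was on an array, so PNX, the side of the lung, the time since the operation and the chip cannot be told apart. The 3 month pools lay at other positions on each chip than the 9 month pools, so age and position cannot be told apart. Each day had its own chips, so in a comparison of days the day and the chip cannot be told apart.

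After loss of one lung in the mouse, the remaining lung enlarges, and cells of the alveolar wall enter the cell cycle while new septal tissue and matrix are laid down. Collagens give the lung its tensile strength, while elastin, crosslinked by lysyl oxidases on a scaffold of fibrillins, gives it recoil. Division proceeds through DNA replication in S phase to mitosis, and the genes of each step are switched on together in cycling cells.

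Each array measured 45281 probes, of which 15795 were detected above background on all 36 arrays and were tested, for 11835 gene symbols. Levels are normalized log2 signals, and a change is the log2 ratio of the right over the left lung of a pool, so that a value of 1 stands for a doubling. An error given as SE is the standard error of the mean of the 3 pools from the limma fit, whose spread was shared over the 18 pools of the series. A probe was called when its p adjusted by the Benjamini-Hochberg method was under 0.05 and its change at least 1.5-fold. The labels do not say how the mice of different pools were housed or operated on. The p-values and SEs rest on the spread shared over the 18 pools and not on that of these 3 alone. The median standard deviation of a gene's ratio was 0.247 in these 3 pools and 0.189 to 0.229 in the other groups. An SE can thus understate the spread of these 3 pools. On these 6 arrays between 46.0% and 47.2% of probes were detected, and the surfactant gene Sftpc (levels of 15.12 to 15.62) and the club cell gene Scgb1a1 (14.77 to 15.51), which define the tissue as lung, were high on all 6. The signal at the 75th percentile was 188 to 197 on the left lung arrays and 321 to 384 on the right lung arrays before normalization.

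Of the probes tested, 2966 were called (18.8%), 1331 higher and 1635 lower in the right lung. With 1 probe per gene, 2274 genes were called (19.2%), of which 1003 rose (8.47% of genes) and 1271 fell (10.7%). The counts of genes that rose or fell in each gene group below are to be read against these shares. The median log2 ratio over all genes was -0.05. The right lung levels lay wholly above or below the left lung levels for 5386 genes (45.5%).

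The largest rise was that of Arg1, the arginine-degrading enzyme of wound macrophages. Arg1 stood at 6.14, 6.82 and 6.60 in the left lungs of pools 1, 2 and 3 and at 10.50, 11.60 and 11.47 in the right, a change of 4.67 ± 0.34 (SE, adjusted p = 9.9e-08), or 25.4-fold. Saa3, an acute phase protein made locally in mouse tissues, went from 7.98, 7.64 and 8.03 to 12.48, 12.71 and 12.20, a change of 4.58 ± 0.25 (SE, adjusted p = 5.5e-09). Timp1, an inhibitor of matrix metalloproteinases, went from 8.92, 8.86 and 8.63 to 12.13, 13.05 and 13.79, a change of 4.19 ± 0.23 (SE, adjusted p = 5.5e-09). For these 3 genes the groups were far apart, and the range over pools was small for Arg1 and Saa3 against the size of the rise. Fcna, a ficolin of the lectin complement pathway (3.82 ± 0.29), Tnc, the wound matrix protein tenascin C (3.75 ± 0.43), and Retnla, a secreted product of alternatively activated macrophages and airway cells (3.64 ± 0.33), followed. The rest of the 12 largest rises were Col1a1, Pbk, Msln, Hist1h2ah, Cdc2a and Tk1, which had changes of 3.18 to 3.42 and belong to the gene groups described next.

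The largest falls were smaller than the largest rises. Zbtb7a, a zinc finger transcription factor, went from 10.60, 10.71 and 10.61 in the left lungs to 8.47, 8.42 and 8.26 in the right, a change of -2.25 ± 0.18 (SE, adjusted p = 1.6e-07). Slc4a1, the anion exchanger of the red cell membrane, had ratios of -1.67, -1.99 and -3.08 in the 3 pools, a change of -2.25 ± 0.32 (SE, adjusted p = 6.8e-05). The pools of Zbtb7a lay closer together than those of Slc4a1, whose fall was deepest in pool 3. Alas2, the first enzyme of heme synthesis in red cell precursors, fell by 2.18. The potassium channel gene Kcnc4, Pdzd2, the neuronal apoptosis inhibitor Faim2, the adenylyl cyclase Adcy8, Igfbp3, which binds insulin-like growth factors, the natural killer cell receptor Klra7, Efcab1 and Ube2l6, an enzyme that attaches ISG15 to proteins, fell by 1.71 to 1.89.

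**Figure D1:**
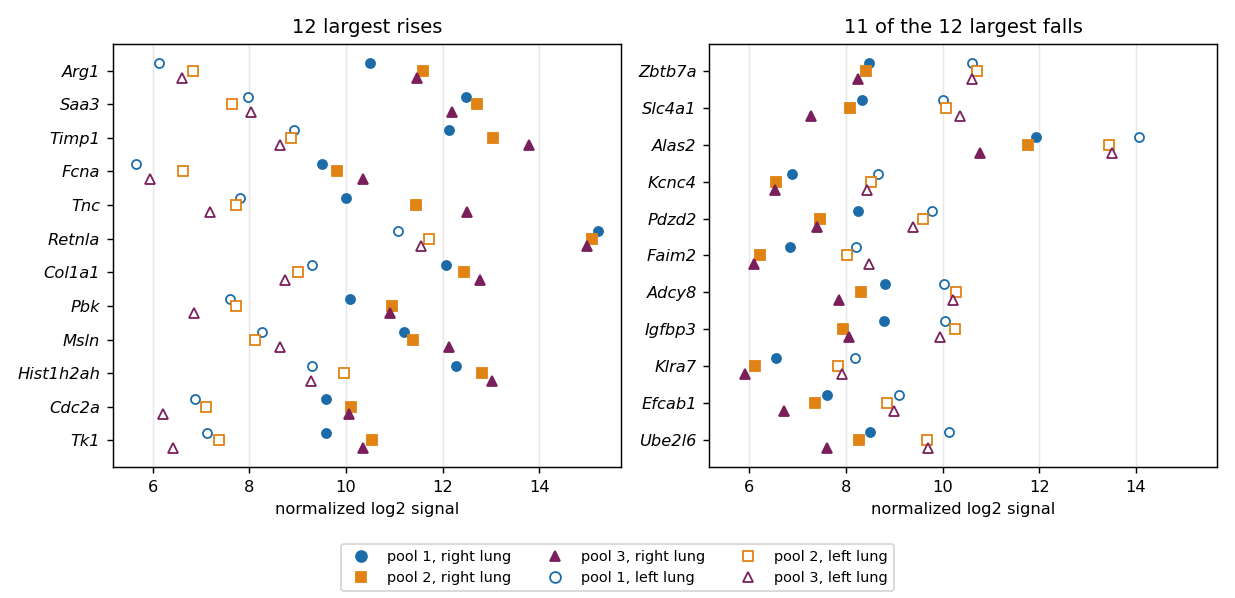
Normalized log2 signal in the left (open symbols) and right lungs (filled symbols) of each pool on day 3 after PNX in 9 month mice, for the 12 genes with the largest rise and 11 of the 12 with the largest fall among those called in which all 3 pools moved the same way. The right lungs lay above the left for Arg1 by 4.36 to 4.87 and for Tnc by 2.20 to 5.32, and below them for all 11 genes that fell.

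Genes of mitosis rose together. Of 34 mitosis genes listed, 16 were detected on all 36 arrays, and all 16 rose, with a median log2 ratio of 2.57 against -0.05 over all genes. The other 18 were not detected on all 36 arrays and were not tested. The median over the 16 was 1.99 in pool 1, 2.78 in pool 2 and 3.35 in pool 3, and pool 3 had the largest rise for all 16 genes. Cdc2a, the array's name for Cdk1, the kinase that drives entry into mitosis, went from 6.87, 7.10 and 6.21 in the left lungs to 9.59, 10.11 and 10.06 in the right, a change of 3.19 ± 0.25 (SE, adjusted p = 1.5e-07). Mki67, the proliferation marker Ki-67, went from 7.61, 7.40 and 6.93 to 10.13, 10.66 and 10.39, a change of 3.08 ± 0.17 (SE, adjusted p = 5.5e-09). Birc5, the survivin subunit of the chromosomal passenger complex, went from 7.12, 7.83 and 7.15 to 10.09, 10.72 and 10.67, a change of 3.13 ± 0.17 (SE, adjusted p = 5.5e-09). In each of these genes the lowest right lung lay more than 2 log2 units above the highest left lung, and the same held for Pbk, a mitotic kinase, at 7.59, 7.72 and 6.85 in the left lungs and 10.08, 10.96 and 10.91 in the right. The topoisomerase Top2a (2.95 ± 0.23), the spindle midzone protein Prc1 (2.85 ± 0.21), Cdc20, the activator of the anaphase-promoting complex (2.47 ± 0.17), and Kif23, a kinesin of cell division (1.98 ± 0.15), were also higher in every pool. Outside the list, the phosphatase Cdkn3 (3.17 ± 0.28), the spindle protein Spag5 (2.67 ± 0.20) and Cdca2 (2.43 ± 0.22), which loads a phosphatase on chromatin, rose as well. They were named for their large differences from day 1, which use the same day 3 ratios, so their rise is not independent evidence.

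The promoters of mitosis genes often carry a CCAAT box and a cell cycle genes homology region, whose core is TTTGAA, which are known to bind NF-Y and the DREAM and MuvB complexes. In RefSeq promoters of GRCm38.p6, from 250 bases before to 50 bases after the start, 15 of the 16 mitosis genes had an entry (not Pbk). Read on either strand, and with no rule on overlap between the motifs, CCAAT was present in 12 of the 15 (80%) and TTTGAA in 13 (86.7%), against 41.1% and 20.2% of all 27025 genes with an entry, and both were present in 12 (80%) against 7.97%. Among 18 DNA replication genes that rose and had an entry, CCAAT was present in 9 (50%), TTTGAA in 3 (16.7%) and both in 2 (11.1%). A match to these letters is a description of the sequence and not a binding site. The 250 bases before the start are given for 4 mitosis genes with large changes and both motifs, 5′ to 3′ on the gene's strand, with each CCAAT or TTTGAA on either strand in capitals. They are Cdk1 (chr10:69352913-69353162), Top2a (chr11:99024190-99024439), Mki67 (chr7:135716380-135716629) and Cdc20 (chr4:118437344-118437593), all on the minus strand.
Cdk1: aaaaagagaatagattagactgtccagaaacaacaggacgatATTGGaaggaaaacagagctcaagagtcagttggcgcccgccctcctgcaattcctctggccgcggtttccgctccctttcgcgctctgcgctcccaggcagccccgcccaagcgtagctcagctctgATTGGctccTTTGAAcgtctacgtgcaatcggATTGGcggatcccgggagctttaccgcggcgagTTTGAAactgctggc
Top2a: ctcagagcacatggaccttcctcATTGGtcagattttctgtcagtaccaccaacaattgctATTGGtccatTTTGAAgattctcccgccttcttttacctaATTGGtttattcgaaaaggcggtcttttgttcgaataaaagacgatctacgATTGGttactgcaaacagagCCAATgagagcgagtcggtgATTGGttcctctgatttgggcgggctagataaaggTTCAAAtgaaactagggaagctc
Mki67: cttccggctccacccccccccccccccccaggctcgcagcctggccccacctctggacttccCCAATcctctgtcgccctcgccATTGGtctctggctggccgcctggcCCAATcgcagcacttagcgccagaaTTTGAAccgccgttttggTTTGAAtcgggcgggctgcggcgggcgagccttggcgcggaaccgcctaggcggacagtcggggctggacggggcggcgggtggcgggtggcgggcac
Cdc20: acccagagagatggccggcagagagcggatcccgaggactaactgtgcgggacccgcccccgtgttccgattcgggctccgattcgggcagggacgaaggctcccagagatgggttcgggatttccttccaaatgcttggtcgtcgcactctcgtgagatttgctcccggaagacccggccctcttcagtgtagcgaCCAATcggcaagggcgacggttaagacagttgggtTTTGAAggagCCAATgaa
Each of the 4 promoters held more than 1 CCAAT box, and both motifs lay within 100 bases of the start in Cdk1, Top2a and Cdc20.

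DNA replication genes rose too, with a smaller median. Of 23 tested, 20 rose and none fell, with a median of 1.54 and medians of 1.18, 1.40 and 1.96 in pools 1, 2 and 3. The thymidine kinase Tk1, which supplies dTTP in S phase, went from 7.13, 7.38 and 6.42 in the left lungs to 9.58, 10.54 and 10.35 in the right, a change of 3.18 ± 0.27 (SE, adjusted p = 4.9e-07). Uhrf1, which copies DNA methylation onto new strands, changed by 2.59 ± 0.23 (SE, adjusted p = 7.4e-07). Mcm5 and Mcm6, subunits of the replicative helicase, changed by 1.81 ± 0.15 and 1.85 ± 0.14. The 3 genes that were not called were Gins1, another helicase factor (-0.39, 0.99 and 1.70 in pools 1, 2 and 3), Dut, which removes dUTP (-0.03, 0.04 and 0.93), and Pold1, a polymerase subunit (0.06, 0.06 and 0.04). Gins1 was higher in the right lung of pools 2 and 3 and lower in pool 1, and it was called when pool 1 was left out (adjusted p = 0.00298). Of 32 genes of a list of histones that was added after values had been seen, 14 rose and 1 fell. Hist1h2ah went from 9.29, 9.95 and 9.28 to 12.28, 12.82 and 13.03, a change of 3.20 ± 0.21 (SE), and Hist1h2ak changed by 2.86 ± 0.19. Histone genes of a cluster are near-identical in sequence, so a probe may read several of them. Hist1h4h was the histone gene that fell, with log2 ratios of -0.24, -1.25 and -1.32 in the 3 pools.

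Interstitial collagens rose in the right lung. Of 11 tested, 9 rose and none fell, with a median of 1.44. Col1a1, a chain of type I collagen, went from 9.29, 9.00 and 8.73 in the left lungs to 12.06, 12.44 and 12.77 in the right, a change of 3.42 ± 0.20 (SE, adjusted p = 1.2e-08), or 10.7-fold. Col3a1, of type III collagen, went from 7.67, 7.68 and 6.87 to 10.06, 10.86 and 10.81, a change of 3.17 ± 0.21 (SE, adjusted p = 4.0e-08). Both chains were highest in pool 3 relative to the left lung and lowest in pool 1. The groups did not overlap for either chain, as was the case for 45.5% of all genes. The second type I chain Col1a2 (1.67 ± 0.15) and the type VI chain Col6a2 (1.65 ± 0.14) rose less. Col8a1 and Col12a1 were not called, with log2 ratios of 0.30, 0.09 and 0.37 and -0.42, 0.18 and 0.47 in pools 1, 2 and 3, although the second of 2 Col12a1 probes was called, at 0.80. In basement membranes 5 of 18 genes rose and 1 fell, and the 5 were collagens and nidogen rather than laminins. They included the endostatin-bearing collagens Col15a1 (1.85 ± 0.24) and Col18a1 (1.25 ± 0.16). Lama3, a laminin chain of epithelial basement membranes, fell by 0.74.

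Elastic fiber genes were split. Of 19 tested, 9 rose and 1 fell, and the median was 0.17. Eln, the elastin precursor, went from 9.36, 9.25 and 9.11 in the left lungs to 11.40, 12.48 and 12.65 in the right, a change of 2.94 ± 0.22 (SE, adjusted p = 1.1e-07). The fibulin Fbln2 (2.16 ± 0.24), the fibrillin Fbn1 (2.14 ± 0.17) and Lox, the lysyl oxidase that crosslinks elastin and collagen, were also higher. Lox had log2 ratios of 0.95, 1.99 and 2.83, lowest in pool 1 and highest in pool 3, with a mean of 1.92 ± 0.26 (SE, adjusted p = 3.8e-05). Ltbp4, a latent TGF-beta binding protein needed for elastic fiber assembly, fell, with ratios of -0.16, -0.92 and -0.75, and was not called without pool 2 (adjusted p = 0.0581) or without pool 3 (-0.54, under 1.5-fold).

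Of 9 genes of a list of matricellular and wound matrix genes, which also held the receptor gene Tnfrsf12a, 4 rose and none fell. Tnc went from 7.80, 7.72 and 7.19 in the left lungs to 10.01, 11.44 and 12.50 in the right, a change of 3.75 ± 0.43 (SE, adjusted p = 7.7e-06), with the range over pools among the 8 widest of all genes. The fibronectin gene Fn1 (1.34 ± 0.23), Tnfrsf12a, the receptor of the cytokine TWEAK (1.32 ± 0.28), and the osteopontin gene Spp1 (0.72 ± 0.17) also rose. Tnfrsf12a was uneven, with log2 ratios of 0.56, 0.93 and 2.48 in the 3 pools. Of 17 matrix proteases and their inhibitors 11 rose and none fell, with medians of 0.30, 0.87 and 1.35 in pools 1, 2 and 3. Besides Timp1, they included the inhibitor Serpina3n (1.49 ± 0.15), Mmp14, which activates other metalloproteinases at the cell surface (1.34 ± 0.15), the gelatinase Mmp2 (1.22 ± 0.14), the proteoglycan-cleaving protease Adamts9 (0.97 ± 0.15) and the tissue plasminogen activator Plat (0.90 ± 0.23). Plat had ratios of 0.23, 0.80 and 1.69 in the 3 pools and was not called without pool 3 (adjusted p = 0.140). Mmp9, the gelatinase of neutrophils and macrophages, was not called, with ratios of 0.45, -0.02 and -0.53.

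Contractile and growth factor genes moved less. Of 11 contractile genes, the actin-binding Tagln (1.40 ± 0.22) and the tropomyosin Tpm2 (1.12 ± 0.16) rose and the myosin light chain kinase Mylk fell by 0.73. Mylk was not called without pool 3 (-0.53, under 1.5-fold), and its other probes gave changes as small as -0.07. Acta2, the smooth muscle actin that marks myofibroblasts, had log2 ratios of 0.21, 0.39 and 0.88 in pools 1, 2 and 3, and its mean of 0.49 ± 0.14 was under 1.5-fold (adjusted p = 0.0101). Without pool 1, Acta2 was called, at 0.63, and the other 3 of its 4 probes were called higher with all pools, with changes up to 1.07. Of 21 growth factors and receptors 4 rose and 4 fell. Igf1, the insulin-like growth factor made by macrophages and mesenchyme, went from 7.96, 7.45 and 7.16 to 9.05, 9.63 and 9.31, a change of 1.81 ± 0.18 (SE, adjusted p = 1.9e-06). Its relative Igf2 fell by 1.03 (adjusted p = 6.3e-05), with ratios of -0.64, -1.21 and -1.22. The vessel-destabilizing ligand Angpt2 fell by 1.24 and Fgf10, a mesenchymal signal to the epithelium, by 0.68. Tgfb3 rose by 0.64 ± 0.12 (adjusted p = 7.4e-04). Fgf10 and Tgfb3 were under 1.5-fold in the authors' log2 values, at -0.58 and 0.54. Fgf7 (ratios of -0.37, -0.19 and -0.36) and Mdk, the growth factor midkine (0.24, 0.64 and 0.39), were not called, and the 2 Mdk probes moved in opposite directions (0.43 and -0.47).

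Epithelial gene groups are given against all genes, of which 8.47% rose and 10.7% fell. Changes in a cell type's genes in whole lung can come, among other things, from the number of its cells or from the RNA per cell, which cannot be told apart. Levels were also normalized between arrays, so a change is relative to the other genes. The deepest change was in ciliated cells, of whose 12 genes tested 10 fell and none rose, with a median of -0.83 and medians of -0.64, -0.83 and -1.19 in pools 1, 2 and 3. Dnaic1, a dynein of the ciliary arms, went from 9.64, 9.83 and 9.63 in the left lungs to 8.81, 8.58 and 8.15 in the right, a change of -1.18 ± 0.17 (SE, adjusted p = 5.5e-05). Tekt1, a tektin of the axoneme, fell by 0.82 (adjusted p = 4.0e-05). Foxj1, the transcription factor that switches on the ciliary genes, was not called, with ratios of 0.06, -0.06 and -0.32. Of 12 secretory airway genes 2 rose (16.7%) and 1 fell (8.33%), which is near the shares of all genes for so few genes. Reg3g, an antibacterial lectin, rose by 2.53 ± 0.24 (adjusted p = 1.2e-06), while Scgb1a1, the secretoglobin of club cells, fell in every pool (-0.52, -0.60 and -0.74, adjusted p = 7.7e-05). Without pool 3, Scgb1a1 was under the fold threshold, at -0.56.

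Of 14 genes of alveolar type II cells 2 rose and none fell, and of 12 genes of type I cells 1 rose and 3 fell. Those were 14.3% and 0% for type II and 8.33% and 25% for type I, against 8.47% and 10.7% of all genes. Sftpc, the surfactant protein that defines type II cells, had log2 ratios of 0.34, 0.13 and -0.17 and was not called (adjusted p = 0.458). The level of Sftpc is near the top of the scale, and its mean turned to -0.41 when arrays were scaled to the 75th percentile in place of quantile normalization. Among type I genes, the epithelial membrane protein Emp2 fell by 0.73 (adjusted p = 1.5e-05) and Hopx by 0.59, the latter with ratios of -0.28, -0.60 and -0.90. Hopx was called neither without pool 3 (-0.44) nor in the authors' log2 values (-0.58). Of 14 genes of a list of transitional alveolar epithelium, which was added after values had been seen, 8 rose and none fell, with medians of 0.42, 0.67 and 1.35 in the 3 pools. The keratin Krt8 went from 12.79, 12.91 and 12.85 in the left lungs to 13.55, 13.83 and 14.34 in the right, a change of 1.06 ± 0.14 (SE, adjusted p = 2.9e-05). The tight junction gene Cldn4 had ratios of 0.57, 2.06 and 3.31, and the calcium-binding S100a14 and the 14-3-3 protein Sfn had ratios of 1.58, 2.69 and 4.24 and 1.75, 1.91 and 3.42. In all 4 genes pool 3 had the largest rise and pool 1 the smallest. Keratins and Sfn are also made by squamous epithelium, some of whose genes were detected in right lungs only, as given among the other observations.

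In the endothelium 1 of 19 genes rose and 4 fell, among them the transcription factor Sox18 (by 0.81) and Tmem100, a membrane protein of lung vessels (by 0.84). No gene of 9 tested was called for pericytes. Of 15 fibroblast genes 4 rose and 2 fell. Mesothelial genes rose, 6 of 7 tested, with a median of 0.78. Msln, the mesothelial surface protein mesothelin, went from 8.27, 8.12 and 8.63 in the left lungs to 11.20, 11.39 and 12.13 in the right, a change of 3.23 ± 0.24 (SE, adjusted p = 1.1e-07). The uroplakin Upk3b went from 10.26, 9.76 and 10.48 to 12.06, 11.62 and 12.11, a change of 1.77 ± 0.20 (SE, adjusted p = 6.2e-06). Aldh1a2, which makes retinoic acid, rose by 1.78 ± 0.21. The pools lay close together for Upk3b. The groups did not overlap for any of the 3 genes, as was the case for 45.5% of all genes.

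Macrophage genes rose in part. Of 14 genes of repair macrophages 8 rose and none fell, with a median of 0.84. Retnla went from 11.08, 11.72 and 11.56 in the left lungs to 15.21, 15.10 and 14.99 in the right, a change of 3.64 ± 0.33 (SE, adjusted p = 8.5e-07). Trem2, a lipid receptor of macrophages, changed by 1.51 ± 0.18. Of 8 genes of alveolar macrophages 2 rose and 2 fell. Marco, a scavenger receptor of these cells, changed by 1.60 ± 0.18 and Mrc1, the mannose receptor, by 0.89, while Ear2, of a family of ribonuclease genes, changed by -0.60 and the keratin gene Krt79 by -0.81. Without pool 3 neither of the 2 that fell was called, at -0.49 (under 1.5-fold) and -0.45 (adjusted p = 0.0730). Of 16 genes of monocytes and macrophages 8 rose and 2 fell, with the complement gene C1qa at 1.31 ± 0.16 (SE, adjusted p = 2.0e-05). The 2 that fell were those of lysozyme. The summed signal of the 16 genes was 66417 to 72020 in the left lungs, and 71335, 70329 and 44919 in the right lungs of pools 1, 2 and 3. Of 20 chemokines and cytokines 8 rose and 2 fell. The macrophage chemokine Ccl9 rose by 1.61 ± 0.24 and the alarmin Il33 by 1.14 ± 0.12 with ratios of 1.12, 1.12 and 1.17, while Ccl5, a chemokine of T and natural killer cells, fell by 1.29. Il1b and the stromal chemokine Cxcl12 were not called, with ratios of 0.26, 0.70 and 0.42 and 0.15, -0.29 and -0.06, while 1 of the 3 Cxcl12 probes was called higher, at 0.96. Of 7 acute phase genes 4 rose, with lipocalin 2 (Lcn2) at 1.33 ± 0.18. Of 7 neutrophil genes 2 rose, including lactoferrin (Ltf) at 1.89 ± 0.18, and of 6 platelet genes 2 rose, including platelet factor 4 (Cxcl4) at 1.51 ± 0.20. S100a4, a calcium-binding gene of fibroblasts and macrophages, had ratios of -0.01, 0.78 and 0.64 and a mean under 1.5-fold, and was called without pool 1 (0.71). None of the 8 eosinophil genes was detected on all arrays, and 5 of the 8 were detected on none of the 6 arrays.

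Among lymphocyte and red cell genes some fell and none rose. Of 11 genes of T and natural killer cells 6 fell and none rose, with a median of -0.86. Nkg7, of cytotoxic granules, went from 9.97, 9.91 and 10.15 in the left lungs to 8.75, 8.63 and 7.62 in the right, a change of -1.67 ± 0.23 (SE, adjusted p = 4.7e-05). Cd3d and Cd3e, signaling subunits of the T cell receptor complex, fell by 1.38 and 1.20, and the natural killer receptor Klrd1 by 1.41. Of 7 B cell genes 2 fell and none rose. The class II gene H2-Eb1 fell by 0.91, the single call among 7 genes of class II presentation. Of 15 interferon-induced genes 4 fell and none rose, and Rsad2, the antiviral protein viperin, had ratios of -1.61, -1.05 and -2.25 (adjusted p = 7.5e-04). Of 5 red cell genes 3 fell, with medians of -0.86, -0.76 and -1.77 in pools 1, 2 and 3. Alas2 went from 14.06, 13.45 and 13.51 to 11.94, 11.77 and 10.78, and Slc4a1 from 10.01, 10.08 and 10.36 to 8.34, 8.09 and 7.28. The globin genes Hba-a1 and Hbb-b1, among the highest signals of the array, were not called, with ratios of -0.37, -0.33 and -0.24 and 0.03, -0.02 and -0.03, and of the 10 Hbb-b1 probes 2 were called lower, with changes down to -1.05. Scaled to the 75th percentile both globin genes fell, by 0.79 and 0.76.

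**Figure D2:**
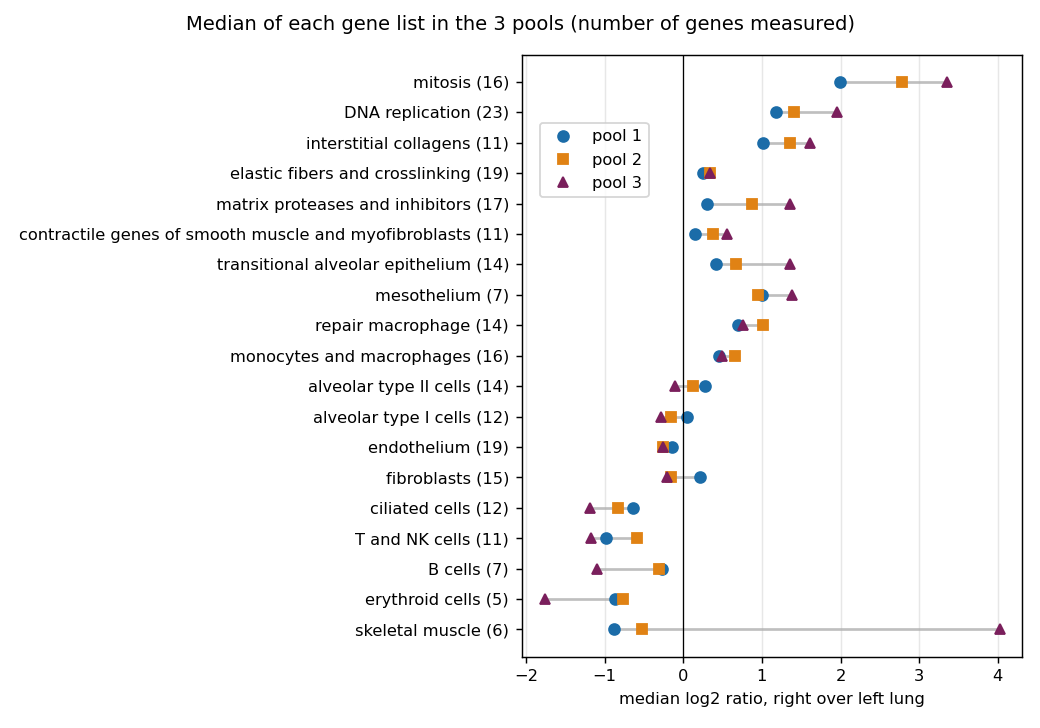
Median log2 ratio of right over left lung of each gene group in each of the 3 pools, with the number of genes tested in parentheses. Mitosis genes lay at 1.99 to 3.35 and ciliated cell and T and natural killer cell genes below 0 in all 3 pools, while skeletal muscle genes lay at -0.88 and -0.53 in pools 1 and 2 and at 4.03 in pool 3.

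Among metabolic and stress genes, 7 of 14 genes of a list of glycolysis and hypoxia rose and none fell. Those with the smallest p were Pgk1 (1.04 ± 0.12, adjusted p = 7.6e-06) and Gapdh, which is often used as a reference gene. Gapdh stood at 12.84, 12.81 and 12.77 in the left lungs and 13.43, 13.69 and 14.05 in the right, a change of 0.92 ± 0.11. Of 23 genes of oxidative phosphorylation 2 rose and none fell. Of 17 genes of a list of endoplasmic reticulum chaperones, which also held Ddit3, 5 rose and 1 fell. The calreticulin gene Calr changed by 1.84 ± 0.31 (ratios of 1.94, 1.84 and 1.73) and Hspa5, the chaperone BiP, by 0.99 ± 0.20 (ratios of 1.64, 0.92 and 0.41). Hspa5 was under 1.5-fold in the authors' log2 values, at 0.47. The gene of this list that fell was Ddit3, which is not a chaperone but a transcription factor of the stress response of that organelle. It fell in every pool (-1.08, -1.27 and -1.35, adjusted p = 7.4e-07). Of 15 immediate early genes 1 rose (6.67%) and 2 fell (13.3%), which is near the shares of all genes for so few genes. Jund1, the array's name for Jund, rose by 1.23 ± 0.15. Jun fell by 1.63 (adjusted p = 3.5e-06), and Dusp1 changed by -1.01. Cdkn1a, the cell cycle inhibitor p21, had ratios of 0.40, 1.02 and 1.63 and was called (adjusted p = 0.00470), but not without pool 3 (adjusted p = 0.0888). Of 10 clock genes 3 fell and none rose. They included Dbp, an output gene of the clock, with ratios of -0.36, -1.03 and -2.21 (adjusted p = 0.0440), and Per2, with ratios of -0.12, -0.69 and -1.34. Neither was called without pool 2 (adjusted p = 0.103 and 0.0970) or without pool 3 (adjusted p = 0.369 and 0.334). The hour of collection is not given in the sources used here. The other lists are given by their counts. For sterol and fatty acid synthesis 2 rose and 1 fell of 17, and for ribosome biogenesis 2 and 0 of 14. For p53 targets and cell cycle inhibitors they were 2 and 1 of 15, and the 1 that fell was the inhibitor Cdkn1c. They were 2 and 2 of 10 for the glucocorticoid response and 0 and 1 of 4 for glia and nerve. None was called of 1 for mast cells and basophils or of 6 for plasma cells and immunoglobulins, a list added after values had been seen.

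Of 22 genes that the study names and that were tested, 13 rose and none fell. The study named some of them from these arrays and others from other assays, so the count is not independent evidence of their direction. Of the 9 that were not called, 8 are given with their groups, and the other was Dpp4, a peptidase of epithelium and T cells, with ratios of -0.07, -0.43 and -0.65 and a mean of -0.38 ± 0.11 (SE, adjusted p = 0.0121) that was under 1.5-fold.

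The 3 pools differed widely in the size of the response. The standard deviation of the log2 ratio over all genes was 0.49 in pool 1, 0.56 in pool 2 and 0.70 in pool 3. At least 1.5-fold higher were 974, 1272 and 1675 genes in pools 1, 2 and 3, and at least 1.5-fold lower were 1233, 1457 and 2275. At least 4-fold lower were 5, 9 and 39 genes. Among the 1003 genes that rose, pool 3 had the largest ratio for 610 and pool 1 the smallest for 601, and among the 1271 that fell, pool 3 had the deepest fall for 799. Of the genes that rose, 375 were under 1.5-fold in pool 1, 178 in pool 2 and 101 in pool 3, and 462 were at least 1.5-fold higher in each of the 3. Of those that fell, 485 were at least 1.5-fold lower in each pool. Across genes, which are not independent, the ratios of pools 1 and 2 correlated at r = 0.70, those of pools 1 and 3 at 0.64 and those of pools 2 and 3 at 0.76. All 3 pools moved the same way for 7022 genes, which included 2238 of the 2274 called. The count of probes called was 3512 without pool 1, 2897 without pool 2 and 2250 without pool 3. The median standard deviation of a gene's ratio over the 3 pools was 0.247 here and 0.189 to 0.229 in the other groups of age and day.

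**Figure D3:**
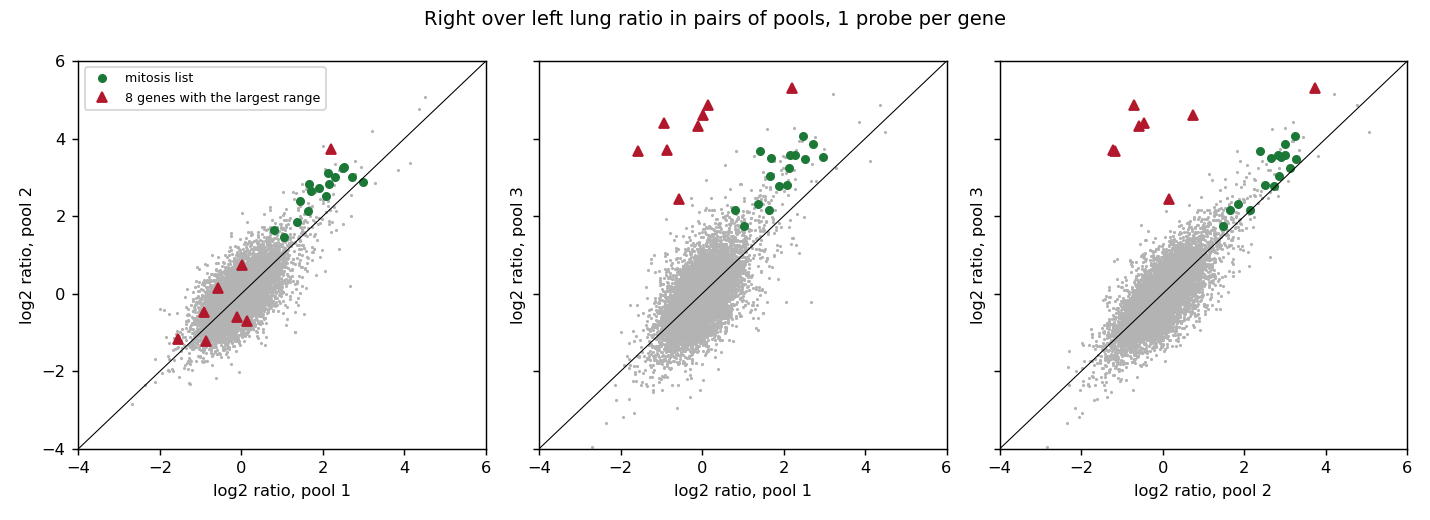
Log2 ratio of right over left lung of each gene in 1 pool against another, for each pair of the 3 pools, over the 11835 genes tested. The ratios correlated at 0.70, 0.64 and 0.76 across genes, with the 16 mitosis genes in green above 0 in every pool and the 8 genes of widest range in red, most of them high in pool 3 alone.

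Part of the spread lay in skeletal muscle genes. The 8 genes with the widest range over pools were Rptn, Atp2a1, Myl3, Mylpf, Ckm, Tnni2, Tnc and Krtap17-1. Mylpf, a myosin light chain of fast muscle, had levels of 6.90, 7.00 and 7.06 in the left lungs of pools 1, 2 and 3 and 6.79, 6.40 and 11.40 in the right. Atp2a1, the calcium pump of fast muscle, had levels of 7.24, 7.55 and 7.70 and 6.32, 7.08 and 12.11. Ckm, the muscle creatine kinase, had levels of 6.50, 7.07 and 6.28 and 5.63, 5.85 and 9.99. In each of these the right lung of pool 3 was more than 2 log2 units above all the other arrays of the group, and the right lungs of pools 1 and 2 were below their left lungs. The fast troponin Tnni2 had log2 ratios of 0.02, 0.75 and 4.61 and the slow light chain Myl3 -1.57, -1.18 and 3.67. Rptn, the repetin of the cornified cell envelope, had ratios of 0.15, -0.72 and 4.87, and the keratin-associated gene Krtap17-1 -0.57, 0.16 and 2.45. Tnni2 was called (adjusted p = 0.0237), but not without pool 3 (adjusted p = 0.541), and without that pool Mylpf, Atp2a1, Ckm, Myl3, Rptn and Krtap17-1 had a mean below 0. Mylpf and Rptn were called without pool 2 (adjusted p = 0.0379 and 0.0383) and Krtap17-1 without pool 1 (adjusted p = 0.0225).

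The summed signal of the 6 skeletal muscle genes tested was 3828, 3927 and 3814 in the left lungs of pools 1, 2 and 3, and 2000, 2870 and 17010 in the right. Over the whole series it was 1757 to 5475 in the 18 left lungs, with a median of 3877, and 2000 to 42790 in the 18 right lungs, with a median of 17650. Pools 1 and 2 thus had the lowest sums of all right lungs, and pool 3 lay near the median. Of the other 8 muscle genes listed, Acta1 was detected on the 3 right lungs and no left lung, and Myh4 and Casq1 on none of the 6 arrays. Among heart muscle genes 1 of 9 rose and 1 fell. The atrial peptide gene Nppa had ratios of 1.01, 2.63 and 0.95, highest in pool 2, and was not called without that pool (adjusted p = 0.174), and the atrial light chain Myl4 fell by 0.70 and was not called without pool 3 (adjusted p = 0.0759). Of 6 fat cell genes 3 rose and 1 fell, with Adipoq at 2.16, 1.87 and 1.89 and Cfd, the complement factor adipsin, at 1.76, 1.07 and 0.97 in the 3 pools, so that both were higher in all 3 pools. Whether tissue collected with the right lung takes part in these values was not tested.

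**Figure D4:**
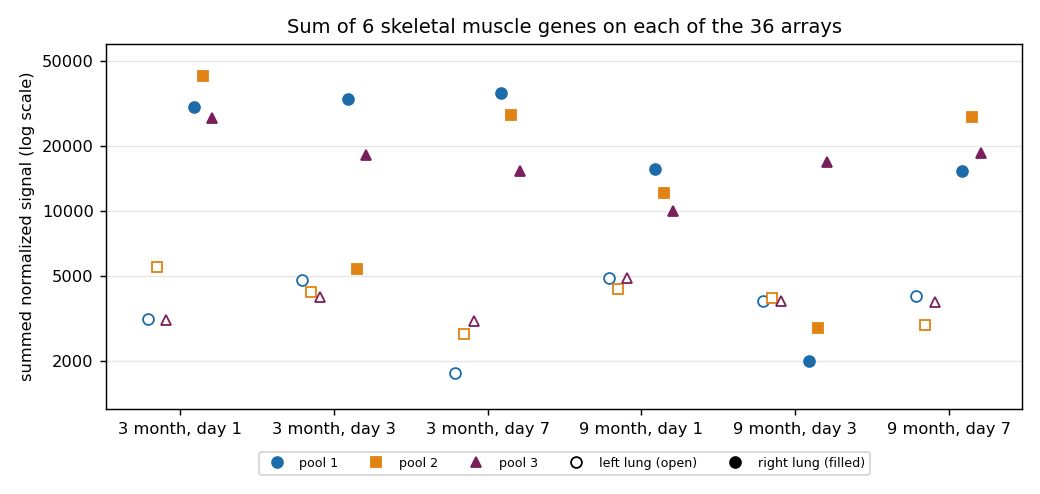
Summed normalized signal of 6 skeletal muscle genes on each of the 36 arrays, on a log scale, by age and day, with open symbols for left and filled symbols for right lungs. The right lungs of pools 1 and 2 of 9 month mice on day 3 lay at 2000 and 2870, the lowest of the 18 right lungs, while that of pool 3 lay at 17010.

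The age of the mice was then compared, to find where the day 3 response of 9 month mice differed from that of 3 month mice. In the test of the difference 2 probes were called (0.0127%), and 1549 of the 15795 had an unadjusted p under 0.05. Alkbh8, a tRNA methyltransferase, had log2 ratios of 0.54, 0.75 and 0.18 in the 9 month pools against -0.83, -0.68 and -0.52 in the 3 month pools, a difference of 1.17 (adjusted p = 0.0330). Chia, the acidic chitinase of airway and alveolar cells, had ratios of 0.18, -0.68 and -0.43 in 9 month and 1.21, 1.08 and 0.83 in 3 month mice, a difference of -1.35 (adjusted p = 0.0330). Within 9 month mice neither gene was called in the response itself. Without 1 pool the count of probes called lay between 0 and 49, with 0 without pool 2 of 9 month mice or pool 1 or 3 of 3 month mice, 7 without pool 3 of 9 month mice and 49 without pool 1. Alkbh8 was not called without pool 2 of 9 month mice or any pool of 3 month mice (adjusted p of 0.0675 to 0.157), and with the authors' log2 values its difference was 0.54 and not called (adjusted p = 0.118). Chia was lost in these cases also (0.0675 to 0.157) and without pool 3 of 9 month mice (0.0503). The medians of the gene groups with large changes were 2.57 and 2.41 for mitosis and 1.44 and 1.27 for interstitial collagens in 9 and 3 month mice, and no member of a list was called for the difference. For Lox the difference was 1.44 (adjusted p = 0.243), with ratios of -0.06, 0.56 and 0.95 in 3 month mice, and for Timp1 1.42 (adjusted p = 0.193). Of the 1003 genes that rose in 9 month mice, 547 (54.5%) were also called higher in 3 month mice, which was 64.1% of the 853 that rose there. Of the 1271 that fell, 560 (44.1%) were called lower in 3 month mice, or 63.7% of 879.

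Against day 1, the day 3 response of 9 month mice differed for 783 probes (4.96%), 471 higher and 312 lower. With 1 probe per gene 385 genes were higher (3.25%) and 245 lower (2.07%). The 6 largest differences upward were Spag5, Prc1, Birc5, Pbk, Cdkn3 and Cdca2, all of cell division, by 3.00 to 3.46. Birc5 had log2 ratios of -0.19, -0.08 and -0.19 on day 1 and 2.98, 2.89 and 3.52 on day 3, a difference of 3.28 (adjusted p = 1.2e-06). All 16 mitosis genes and 15 of 23 replication genes were higher on day 3 than on day 1. The mitosis median was -0.08 on day 1 and 2.57 on day 3, so the mitosis genes that stood high on day 3 were near their left lung levels on day 1. Kif23 was lower in the right lung on day 1 (-0.40, -0.64 and -0.50) and higher on day 3 (1.64, 2.15 and 2.15), with an adjusted p of 2.6e-06 for the difference. Of the monocyte and macrophage genes 3 of 16 were higher on day 3, including C1qa (difference 0.96, adjusted p = 0.0246). Igf1 (difference 1.25, adjusted p = 0.00895) and Col1a2 (difference 1.07, adjusted p = 0.00755) were higher too.

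The 6 largest differences downward from day 1 were Tinagl, an extracellular matrix protein, Calca, which encodes the neuropeptide CGRP, Smad6, an inhibitor of BMP signaling, Plat, the actin regulator Fmnl2 and the filamin Flnc, by 1.59 to 1.97. Calca had ratios of 1.89, 2.50 and 1.80 on day 1 and 0.16, 0.33 and 0.60 on day 3 (adjusted p = 0.00173). Smad6 had ratios of 1.05, 1.16 and 0.67 on day 1 and -0.16, -1.07 and -0.88 on day 3 (adjusted p = 0.0167), and Fmnl2 0.79, 1.43 and 0.45 and -0.68, -0.82 and -0.76 (adjusted p = 1.2e-04). Smad6 and Fmnl2 were higher in the right lung on day 1 and lower on day 3 in every pool. Tinagl had ratios of -0.24, -0.37 and 1.62 on day 3, so that pools 1 and 2 lay below 0, and Flnc of 0.11, 1.43 and 2.20. Without 1 pool of either day, Tinagl was not called in 3 cases of 6 (adjusted p of 0.0510 to 0.0765), Flnc in 4 (0.0701 to 0.110), Smad6 in 2 (0.0723 and 0.0795) and Plat without pool 2 of day 1 (0.0535). For the response on day 3 itself, Smad6 was not called without pool 2 (adjusted p = 0.247) or pool 3 (0.202), nor Flnc without pool 3 (0.0716). The count of probes called for the difference was 311 without pool 2 of day 3, 306 without pool 2 of day 1 and 508 without pool 3 of day 1.

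Against day 7, 222 probes differed (1.41%), 133 higher and 89 lower on day 3, or 92 genes higher (0.777%) and 67 lower (0.566%) with 1 probe per gene. Of the 16 mitosis genes none was called for the difference by limma, and their median was 2.54 on day 7. Ezh2, the histone methyltransferase of Polycomb, had ratios of 1.48, 1.25 and 1.13 on day 3 and 0.04, -0.66 and -0.67 on day 7, a difference of 1.71 (adjusted p = 0.00685). Selp, the platelet and endothelial adhesion molecule P-selectin (1.71), the casein kinase copy Csnk2a1-rs3 (1.69), the ankyrin repeat gene Ankhd1 (1.65), the focal adhesion gene Lpp (1.51) and the nuclear envelope gene Syne1 (1.49) followed. Selp had ratios of 0.19, 0.65 and 1.71 on day 3 and -0.74, -0.79 and -1.04 on day 7, while Ankhd1 and Syne1 were below 0 on both days and deeper on day 7. The response of Selp on day 3 itself was not called without pool 3 (adjusted p = 0.161). Among the largest differences downward were those of Alas2 (-2.10), Kcnc4 (-1.90), the mucosal repair peptide Tff2 (-1.89), the cadherin Cdh16 (-1.75) and the muscle ribosomal protein Rpl3l (-1.63). Alas2 had ratios of -2.12, -1.68 and -2.73 on day 3 and -0.37, 0.32 and -0.20 on day 7, and Cdh16 of -1.27, -0.90 and -0.96 and 0.38, 0.70 and 1.06. Tff2 had ratios of 0.07, -1.22 and -1.06 on day 3, and its fall on that day was not called without pool 2 (adjusted p = 0.199) or pool 3 (0.168).

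The comparison with day 7 rested on few pools. Without pool 3 of day 7, 5 probes were called, and of the 11 genes named for this comparison Cdh16 was called and the other 10 were not (adjusted p of 0.0562 to 0.143). Without pool 2 of day 7 there were 42 calls, and without pools 1, 2 and 3 of day 3 there were 187, 41 and 120. Of these 11 genes, without pool 2 of day 3 Csnk2a1-rs3, Lpp, Syne1, Tff2 and Rpl3l were not called (0.0585 to 0.113), without pool 2 of day 7 Selp, Kcnc4 and Rpl3l (0.0520 to 0.145), and without pool 1 of day 3 Rpl3l (0.0986). The 3 responses use different mice and different array chips on each day, so day, mice and chip cannot be told apart. Of the 1003 genes that rose on day 3, 505 (50.3%) were also called higher on day 1, or 46.0% of the 1098 that rose there, and 625 (62.3%) on day 7, or 53.1% of 1178. Of the 1271 that fell, 700 (55.1%) were called lower on day 1, or 46.8% of 1496, and 533 (41.9%) on day 7, or 42.3% of 1259.

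**Figure D5:**
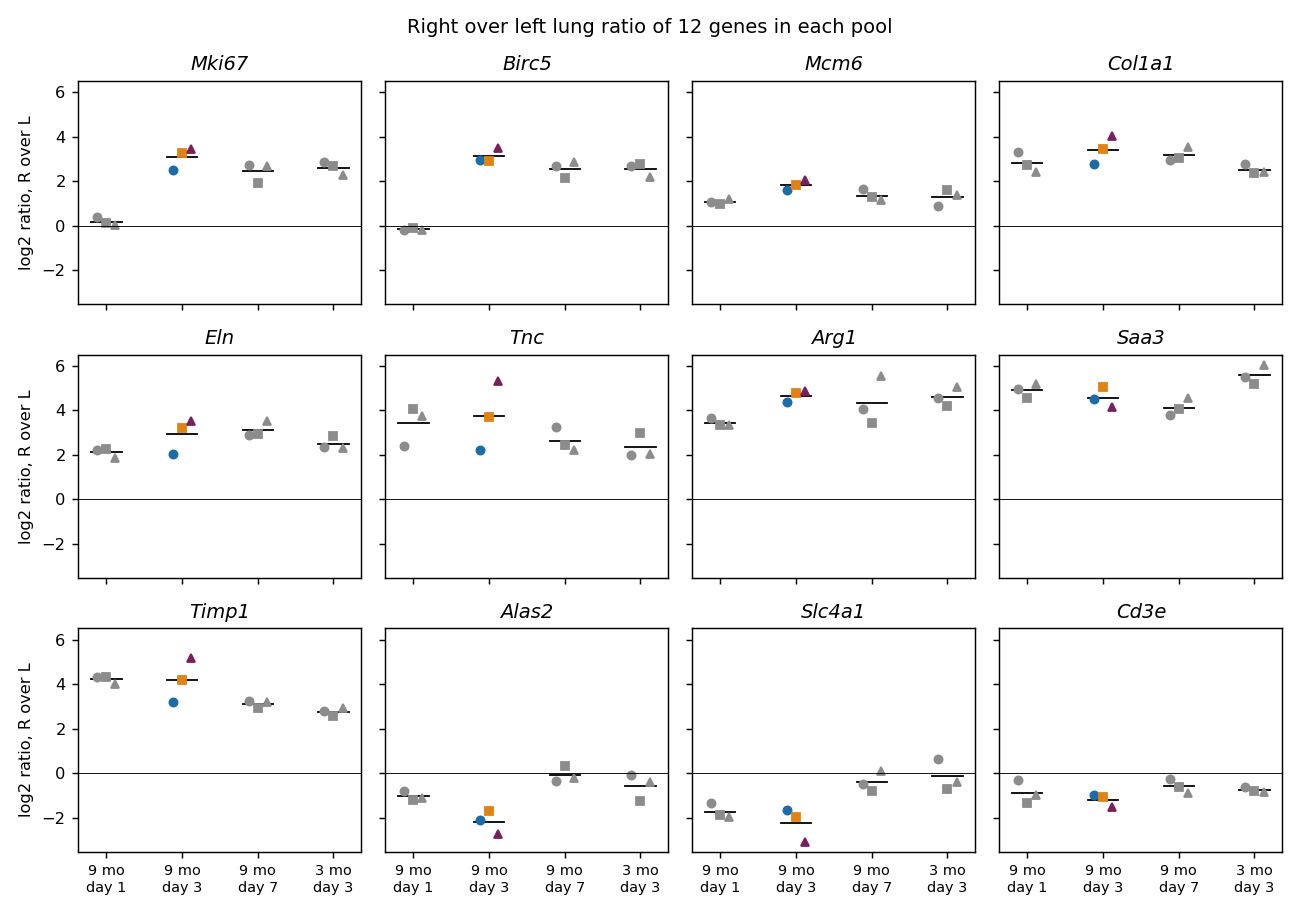
Log2 ratio of right over left lung of each pool for 12 genes in 9 month mice on days 1, 3 and 7 and in 3 month mice on day 3, with a symbol for each pool and a bar for the mean of 3 pools. The mean of Birc5 was -0.15 on day 1 and 3.13 on day 3, and that of Alas2 was -2.18 on day 3 and -0.08 on day 7.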

How the data were processed

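RNA of the 6 arrays was extracted from RNAlater-preserved lungs with Trizol, and equal amounts of 2 mice were pooled, amplified to biotin-labelled cRNA and hybridized to Illumina mouse arrays. The authors deposited signal intensity for each probe that had not been normalized between arrays and reached below 0, with a detection p-value per probe and array, and, separately, log2 values after RMA background correction and quantile normalization in lumi. The deposited intensity was used here. Background was corrected with the normexp method of limma 3.58.1 in R 4.3.3, with control levels inferred from the detection p-values and an offset of 16, followed by log2 and quantile normalization over the 36 arrays. Probes with a detection p-value under 0.05 on all 36 arrays were kept (15795 of 45281), and a gene was represented by its kept probe of highest mean. The log2 ratio of right over left lung was taken within each pool, whose lungs came from the same mice, and the 18 ratios were fitted in 6 groups of age and day with limma, with 12 residual degrees of freedom and moderated tests, after Benjamini-Hochberg adjustment over all probes. As a check, left and right lungs of a pool deviated from their group means with correlations of 0.05 to 0.08 in the 9 month pools of day 3 and of -0.28 to 0.07 in the other groups. For the age difference, a call also required a response of at least 1.5-fold in at least 1 of the ages. For a day difference, the difference itself had to be at least 1.5-fold. The number of arrays limits the precision.

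Genes were named where they had the 12 largest rises or falls with all pools in the same direction, the smallest p among called members of a list (up to 4), one of the 8 widest ranges over pools, one of the 6 largest differences in each direction from the other age or days, or a name in the study. A gene with a predicted or clone name was skipped, and some genes are not reported here. The members and lists were chosen with earlier results of these data known. Of 803 listed symbols in 48 lists, 779 were on the array and 569 were tested. Of 30789 symbols on the array 21918 matched RefSeq GRCm38.p6, from which the promoters were taken. Alternatives were the authors' log2 values, other background, scaling and detection settings, no pairing, the mean of all left lungs of the age, only the groups compared, array weights, no fold threshold and leaving out each pool.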

Additional observations from a re-analysis of the deposited data

Results flagged for a closer look

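The tests of a difference between groups called 2 probes for age, 783 for day 3 against day 1 and 222 for day 3 against day 7 in 9 month mice. For age these were Alkbh8, with a difference of 1.17, and Chia, with -1.35. Against day 1 the largest differences upward were Spag5 (3.46), Prc1 (3.33), Birc5 (3.28), Pbk (3.26), Cdkn3 (3.13) and Cdca2 (3.00), and downward Tinagl (-1.97), Calca (-1.70), Smad6 (-1.67), Plat (-1.65), Fmnl2 (-1.64) and Flnc (-1.59). Against day 7 they were Ezh2 (1.71), Selp (1.71), Csnk2a1-rs3 (1.69), Ankhd1 (1.65), Lpp (1.51) and Syne1 (1.49) upward, and Alas2 (-2.10), Kcnc4 (-1.90), Tff2 (-1.89), Cdh16 (-1.75) and Rpl3l (-1.63) downward.

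A search for opposite directions covered only the 149 genes named in this report. In a few others of these all 3 pools of day 3 moved one way and all 3 pools of another day the opposite way. Over all genes tested, 11 that rose and 4 that fell on day 3 were called the opposite way on day 1. For day 7 these counts were 1 and 4. Kif23 had a mean log2 ratio of -0.51 on day 1, and its difference from day 3 was called by limma (adjusted p = 2.6e-06). Scgb1a1 had a mean of 0.18 on day 1 (adjusted p = 0.0017 for the difference). The means on day 1 of Il1b (-0.55, adjusted p = 0.22) and Mdk (-0.17, 0.066), and those on day 7 of Il1b (-0.38, 0.34) and Alkbh8 (-0.23, 0.052), were opposite to day 3, but the differences did not pass the test.

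Outside the probes tested, 254 were detected on the 3 right lungs and none of the 3 left lungs, and 199 on the 3 left lungs and none of the right. A fold for such a probe is a lower bound, from the bright group's mean over the higher of the dim probe's own signal and the lowest signal above background on each array. Among the 199, a pair of probes for Actb, which encodes beta-actin, gave falls of at least 21.7-fold and 17.6-fold. These probes lay at 9.16 to 10.5 on the left lung arrays and 4.96 to 5.42 on the right, while the other 3 Actb probes lay at 11.9 or above on all 6 arrays. The same pair was detected on all 18 left lungs of the series and on 8 and 7 of the 18 right lungs. The cause was not tested.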

How the results depend on the processing

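Of 174 results for single genes, 114 kept their direction and call under every alternative run. Over 2666 values, 107 lost the call, 26 gained it and 22 changed sign. The direction changed for Sftpc with scaling to the 75th percentile (-0.41), for Cxcl12 (0.16), Hbb-b1 (0.044) and Mmp9 (0.14) with all left lungs of the age as baseline, and for Ckm (-0.29), Lpp (0.13), Myl3 (-0.42) and Tinagl (-0.0011) with array weights. When 1 pool was left out, the lowest and highest values lay on either side of 0 for 14 genes. They were -0.018 to 0.24 for Sftpc, -0.46 to 0.12 for Lpp and -0.64 to 0.10 for Rpl3l, whose sign changed without pool 1, and -0.18 to 0.045 for Cxcl12, without pool 2. Without pool 3 the sign changed for Hbb-b1 (-0.026 to 0.0064), Mmp9 (-0.28 to 0.22), Ckm (-1.04 to 1.42), Myl3 (-1.37 to 1.25), Tinagl (-0.31 to 0.69), Atp2a1 (-0.69 to 1.97), Col12a1 (-0.12 to 0.33), Krtap17-1 (-0.21 to 1.31), Mylpf (-0.35 to 2.11) and Rptn (-0.28 to 2.51).

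The 2966 probes called for the response became 1720 with the authors' log2 values and 5701 with no fold threshold, and 2250 to 3512 without 1 pool. The 2 probes called for age became 1 with an offset of 50 or a detection p under 0.01, 4 with detection on at least 3 arrays, 155 with all left lungs of the age as baseline and 9 with array weights. They became 0 by limma with no detection filter (3415 at an unadjusted p under 0.05) and with only the groups compared (1082), and 0 to 49 without 1 pool, with 1287 to 1463 at an unadjusted p under 0.05 where the count was 0. The 783 probes of the day 1 difference became 217 with only the groups compared and 306 to 705 without 1 pool. The 222 probes of the day 7 difference became 82 with detection on at least 3 arrays, 72 with no filter, 1533 with all left lungs as baseline, 115 with only the groups compared, 1231 with array weights and 5 to 213 without 1 pool. Without the pairing of lungs (no replicate block) the counts were 2975 for the response, 8 for age, 962 for day 1 and 467 for day 7, and Dbp (adjusted p = 0.059) and the age difference of Alkbh8 (0.127) lost their calls. The causes were not tested. Probes of low signal, near background on some arrays, were not tested at all.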

Other observations

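Some probes that were not detected in any left lung were detected in every right lung of 9 month mice on day 3. Genes of squamous epithelium were among them, with Lgals7, an epithelial galectin, at least 11.8-fold higher (7.81, 8.17 and 11.2 in the right lungs of pools 1, 2 and 3), Sprr1a, of the cornified envelope, at least 9.00-fold and the basal keratin Krt14 at least 5.13-fold. Muscle genes were Acta1, the skeletal actin, at least 8.65-fold (6.57, 6.05 and 13.2) and the perinatal myosin Myh8, at least 7.05-fold (6.32, 5.61 and 13.0). Lgals7, Acta1 and Myh8 were far higher in pool 3 than in pools 1 and 2, and without pool 3 the bounds were 5.67-fold, 1.77-fold and 1.39-fold, with 5.69-fold for Sprr1a and 3.20-fold for Krt14. A further probe of Myh8, with a bound of 4.23-fold, did not pass (adjusted p = 0.0579). Genes of division were Iqgap3 (at least 8.17-fold), the kinetochore gene Spc25 (at least 5.39-fold) and Ckap2 (at least 4.34-fold), and matrix genes were the protease Adamts4 (at least 5.08-fold, and 8.04-fold without pool 1) and the thrombospondin Thbs2 (at least 3.77-fold). By limma, over probes detected on at least 3 arrays, the adjusted p of the other probes lay between 2.2e-07 for Iqgap3 and 0.0239 for the Myh8 probe named first. They were chosen after their values had been seen, from 254 probes, of which 200 passed the test. All 254 were picked by detection on the same right and left lung arrays that the test compares. These p-values and the count of 200 are therefore not independent evidence of a difference.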
